A study of Mus musculus with 24 samples.

Results

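Bone marrow from mice with leukaemia driven by the BCR/ABLp190 oncogene was compared with B220+ B cells from the marrow of wild-type mice. The comparison takes every array whose title names Sca1-BCR/ABLp190 bone marrow (2 arrays) and every array of B220+ marrow B cells (5 arrays), 7 of the 24 arrays in the series. BCR/ABLp190 is a fusion kinase made of parts of BCR and ABL1. Here it is a transgene under the Sca1 promoter, which is active in haematopoietic stem and progenitor cells, and these mice carried both copies of Pax5. The B220+ cells came from wild-type mice with neither transgene nor Pax5 mutation, and B220, an isoform of the surface phosphatase CD45, marks the B lineage from its early stages on. Other arrays of the series served for 3 purposes. Leukaemic marrow of 7 mice with the same transgene and a single Pax5 copy (heterozygous leukaemias) shared the estimate of spread and gave a further comparison, and pro-B and pre-B cells of 4 wild-type mice (wild-type precursors) served as an alternative control. Pax5 encodes the factor that commits cells to the B lineage, and the series asks how it and the oncogene bear on metabolism in precursor B cell leukaemia. All mice lived in a conventional facility. Strain, age and a sort of the leukaemic marrow are not stated in the labels, so the leukaemia arrays are taken as marrow and not as a purified cell type.

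B cells arise in the marrow in steps. Stem and progenitor cells switch on EBF1, TCF3 and PAX5, pro-B and pre-B cells rearrange the antibody genes with RAG1 and RAG2 and pair the heavy chain with a surrogate light chain, and mature cells gain CD20, CD23, CD21 and MHC class II. The same marrow makes granulocytes, whose primary granules carry myeloperoxidase and serine proteases and whose later granules carry lactoferrin and antimicrobial peptides, as well as red cells, macrophages and platelets, on a bed of stroma and vessels. RNA of a whole tissue adds up all of these, so fewer cells of a type and less RNA per cell cannot be told apart in any result that follows.

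Levels are given as the deposited log2 values, on which a difference of 1 is a doubling, for 1 probe set per gene. Changes are the mean of both leukaemia arrays minus the mean of the B220+ arrays ± SE, from a limma fit to 14 arrays, and a gene rose or fell where its Benjamini-Hochberg adjusted p over 19938 genes was under 0.05. Such a gene is referred to as called, and calls that ended or arose when 1 array was left out are given with each group. Changes against wild-type precursors came instead from a fit to all 24 arrays, with another estimate of the spread. Against B220+ cells the fit to 24 arrays gave 5806 calls and the fit to 14 arrays 4260. Counts and SE under the 2 controls are therefore not on the same footing. The arrays are labelled as biological replicates. The leukaemia arrays correlated at 0.947 over all probe sets and the B220+ arrays at 0.979 to 0.995, so the leukaemias were less alike than the controls. B220+ array 1 stood apart from the other B220+ arrays, with a root mean square difference of 0.351 to 0.429 log2 against 0.216 to 0.278 among the rest. The Sca1-BCR/ABLp190 arrays also differed in sex-linked genes: Xist was 5.84 on leukaemia array 1 and 12.95 on array 2, and the Y-linked Eif2s3y 9.41 and 4.60, while all B220+ arrays had Xist at 12.25 to 12.48 and Eif2s3y at 4.53 to 4.64. With 2 leukaemia arrays, a value found on only 1 of them has no replicate. The values of both are therefore given singly.

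The labels were first set against defining markers. The B220+ arrays had high levels of the B cell genes Pax5 (12.24, 12.44, 12.42, 12.20 and 12.33 on arrays 1 to 5), Cd79a (13.06 to 13.40) and Ms4a1 (12.65 to 12.80). On the leukaemia arrays Pax5 was 8.10 and 8.39, Cd79a, a signalling chain of the antigen receptor, 9.39 and 9.84, and Ms4a1, which encodes CD20, 8.74 and 6.35. Both leukaemia arrays lay below every B220+ array for the 3 genes, although the series names the disease as a precursor B cell leukaemia. Pax5 changed by -4.09 ± 0.76 (SE, adjusted p = 0.00241), and Abl1 (change -0.04 ± 0.25, adjusted p = 0.923) and Bcr (change -0.53 ± 0.25, adjusted p = 0.153) did not pass. Abl1 was 9.26 on array 1 and 10.57 on array 2, on opposite sides of the B220+ range of 9.84 to 10.10, and Bcr was 8.70 and 9.82 against 9.68 to 9.95. Whether these probe sets detect the human parts of the transgene is not known. Without leukaemia array 1 the change of Abl1 was 0.61 (adjusted p = 0.0429), and without array 2 it was -0.69 (adjusted p = 0.0129). Without leukaemia array 2 Bcr had -1.09 (adjusted p = 0.00475).

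Over all genes 4260 of 19938 (21.4%) passed, 1891 higher (9.48%) and 2369 lower (11.9%) in the leukaemias, and the median change over all genes was -0.07. The balance moved with the scaling: 44.4% of the calls were higher as deposited, 19.1% after median centring, which shifted the median of all genes to -0.21, 55.8% after cyclic loess and 37.9% after quantile normalization. The total was 2235 without leukaemia array 1 (6.33% of all genes higher and 4.88% lower) and 4755 without array 2 (10.9% higher and 13% lower). Both leukaemia arrays lay above every B220+ array for 3366 genes (16.9%) and below every one for 5297 (26.6%). For 1830 genes they lay outside the B220+ range on opposite sides, and 0 of these passed the limma test, with 43 at an unadjusted p under 0.05. Array 1 exceeded array 2 by at least 2 log2 for 342 genes (1.72%), and array 2 exceeded array 1 by as much for 186 (0.933%). These percentages are the background against which each list is read.

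**Figure D1:**
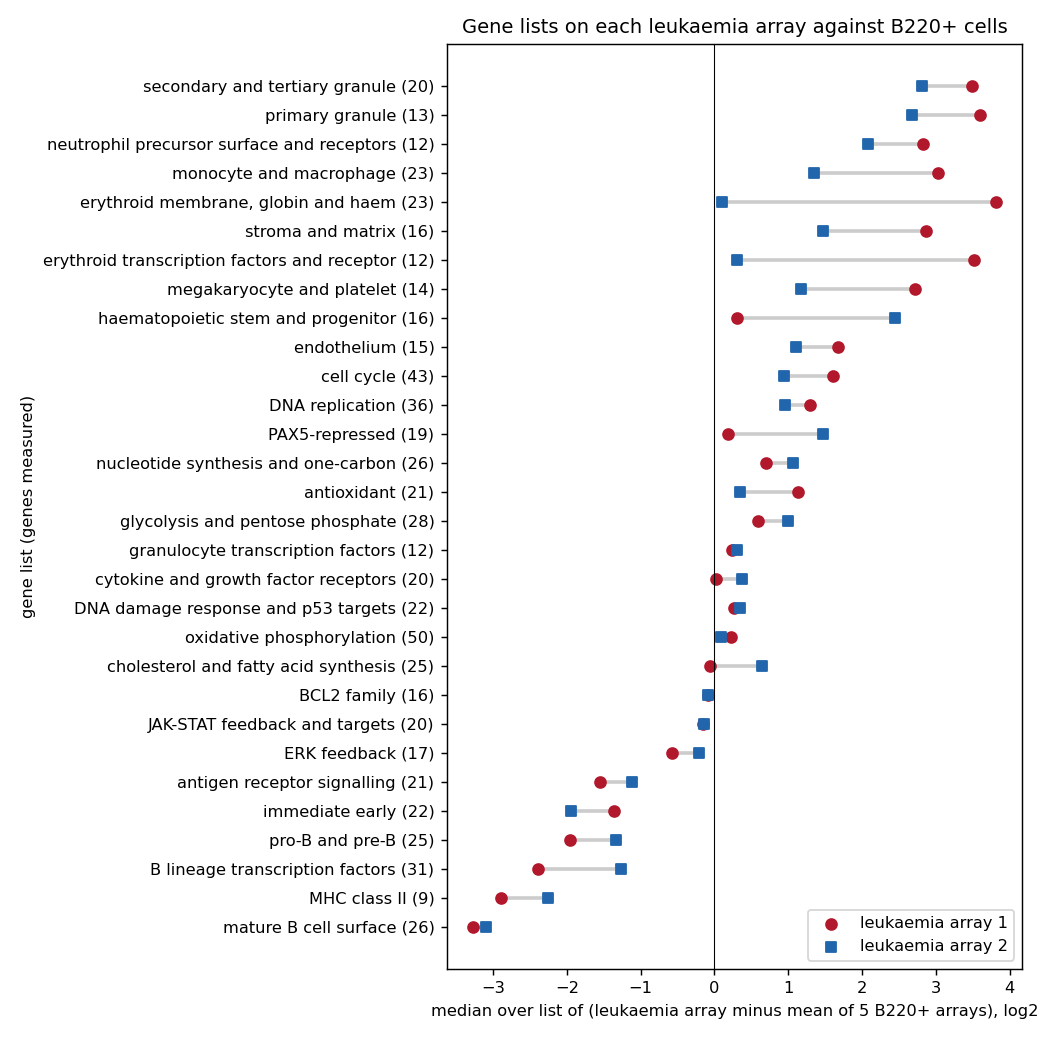
Median over each gene list of the difference between a leukaemia array and the mean of the 5 B220+ arrays (log2), with red circles for leukaemia array 1 and blue squares for array 2. Both arrays are below 0 for the B cell lists (-3.27 and -3.10 for mature B surface genes) and above 2 for the granule lists, while the erythroid membrane list is at 3.82 on array 1 and 0.10 on array 2.

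Some genes of the granulocyte and erythroid results below are shown first by the 250 bases before their start of transcription. The bases are read 5′ to 3′ from the RefSeq promoter table of build GRCm38.p6. Of the genes shown, Ngp, Kel and Rhd did not pass the test against B220+ cells. Ctsg, Prtn3, Elane and Mpo encode primary granule proteins that were high on both leukaemia arrays, Ngp a later granule protein, and Kel and Rhd red cell membrane proteins that were high on leukaemia array 1. Capitals mark 3 motifs searched on both strands: GAGGAA, a core bound by PU.1, TTGCNNAA, bound by C/EBP factors, and AGATAA, bound by GATA factors.
Ctsg (chr14:56102575-56102824, minus strand): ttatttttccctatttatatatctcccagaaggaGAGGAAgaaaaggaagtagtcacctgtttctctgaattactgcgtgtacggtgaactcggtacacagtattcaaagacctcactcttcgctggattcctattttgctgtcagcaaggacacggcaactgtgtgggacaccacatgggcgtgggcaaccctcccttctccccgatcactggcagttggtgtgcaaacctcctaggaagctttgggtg
Prtn3 (chr10:79879417-79879666, plus strand): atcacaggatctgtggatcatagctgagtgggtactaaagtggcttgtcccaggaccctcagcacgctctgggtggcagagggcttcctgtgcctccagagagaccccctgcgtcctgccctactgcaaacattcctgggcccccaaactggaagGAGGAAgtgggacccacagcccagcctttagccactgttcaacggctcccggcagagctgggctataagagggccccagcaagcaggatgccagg
Elane (chr10:79886062-79886311, plus strand): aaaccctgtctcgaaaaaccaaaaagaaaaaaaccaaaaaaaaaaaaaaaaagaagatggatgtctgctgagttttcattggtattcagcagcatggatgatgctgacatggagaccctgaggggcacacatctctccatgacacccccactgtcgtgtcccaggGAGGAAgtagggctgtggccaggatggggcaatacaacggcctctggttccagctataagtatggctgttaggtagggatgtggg
Mpo (chr11:87793534-87793783, plus strand): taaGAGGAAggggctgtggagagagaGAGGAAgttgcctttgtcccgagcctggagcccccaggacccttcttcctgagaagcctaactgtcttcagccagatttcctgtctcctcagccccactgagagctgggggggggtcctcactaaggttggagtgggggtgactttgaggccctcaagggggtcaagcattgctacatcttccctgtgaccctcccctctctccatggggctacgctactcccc
Ngp (chr9:110419558-110419807, plus strand): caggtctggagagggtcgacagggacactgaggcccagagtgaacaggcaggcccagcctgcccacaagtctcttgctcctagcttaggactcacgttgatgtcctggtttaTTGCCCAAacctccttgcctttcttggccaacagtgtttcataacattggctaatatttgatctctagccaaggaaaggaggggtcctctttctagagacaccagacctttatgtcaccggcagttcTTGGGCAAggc
Kel (chr6:41704326-41704575, minus strand): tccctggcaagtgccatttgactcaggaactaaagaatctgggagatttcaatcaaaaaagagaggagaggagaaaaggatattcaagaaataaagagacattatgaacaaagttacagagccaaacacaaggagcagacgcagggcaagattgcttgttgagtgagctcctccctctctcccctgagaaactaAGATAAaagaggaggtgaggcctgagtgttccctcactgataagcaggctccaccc
Rhd (chr4:134864286-134864535, plus strand): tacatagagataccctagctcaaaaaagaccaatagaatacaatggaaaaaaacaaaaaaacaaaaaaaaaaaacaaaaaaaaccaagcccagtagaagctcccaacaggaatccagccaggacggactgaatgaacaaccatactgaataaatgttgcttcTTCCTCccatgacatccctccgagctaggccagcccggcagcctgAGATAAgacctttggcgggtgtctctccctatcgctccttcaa

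The PU.1 core starts 216 bases before the start in Ctsg, 95 in Prtn3, 85 in Elane and 247 and 224 in Mpo, each time on the strand of the gene. Ngp holds C/EBP motifs 138 and 11 bases before its start. Kel holds the GATA motif at 56 bases and Rhd at 43, and Rhd also holds the PU.1 core on the other strand at 88. Among genes with a window, the PU.1 core was found for 6 of 11 primary granule genes and 9 of 17 secondary and tertiary granule genes, against 25.5% of the 15614 measured genes with a window. The C/EBP motif was found for 8 of 17 secondary and tertiary granule genes and 2 of 11 primary granule genes, against 10% of all genes. For the GATA motif the counts were 4 of 16 erythroid membrane genes and 4 of 10 erythroid regulators, against 9.94%. It was also found for 4 of 17 secondary and tertiary granule genes. The PU.1 core was not particular to granule genes. It was found for 8 of 16 mature B cell surface genes, 9 of 25 B lineage factors and 8 of 21 pro-B and pre-B genes. The counts were 6 of 16 erythroid membrane genes, 4 of 10 erythroid regulators, 3 of 15 stem and progenitor genes and 0 of 6 MHC class II genes. In single windows the shares over all 19177 were 22.6%, 8.66% and 8.45%. A gene can have several windows, and a match describes letters and not binding.

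Genes of mature B cells were low on both leukaemia arrays. Of 26 measured surface genes 22 fell and 0 rose, where 11.9% of all genes fell, with a median of -3.02, and 26 had both leukaemia arrays below every B220+ array (26.6% of all genes). Ms4a1 changed by -5.19 ± 0.83 (SE, adjusted p = 0.000887) and was higher on array 1 (8.74) than on array 2 (6.35). Fcer2a, the low-affinity IgE receptor CD23, was 6.77 and 6.45 on leukaemia arrays 1 and 2 against 11.45, 11.80, 11.61, 11.69 and 11.54 on the B220+ arrays, a change of -5.01 ± 1.1 (SE, adjusted p = 0.00662). The complement receptor gene Cr2 was 6.25 and 5.44 against 8.99, 10.27, 9.85, 9.92 and 9.56 (change -3.87 ± 0.36, adjusted p = 2.32e-05). For both receptors the groups did not overlap. Fcrl1, a receptor-like molecule of B cells (7.45 and 6.58 against 10.48 to 10.94, change -3.69 ± 0.25, adjusted p = 2.72e-06), Tnfrsf13c, the receptor for the survival factor BAFF (7.99 and 8.66 against 12.35 to 12.45, change -4.07 ± 0.40, adjusted p = 3.62e-05), and Cd37, a tetraspanin (10.77 and 11.18 against 12.95 to 13.05, change -2.0 ± 0.20, adjusted p = 3.68e-05), fell as well. Among the 8 largest falls were also Cpm, a membrane carboxypeptidase (5.45 and 5.16 against 11.53 to 11.81, change -6.33 ± 0.39, adjusted p = 1.32e-06), Cd72, an inhibitory receptor (7.67 and 8.46 against 12.47 to 12.78, change -4.58 ± 1.09, adjusted p = 0.0102), and Niban3 (7.50 and 8.59 against 12.65 to 12.99, change -4.74 ± 0.70, adjusted p = 0.000514). The list did not fall evenly: Ly6d, a marker of early B commitment, was 8.40 on array 1 and 11.98 on array 2, against 12.34 to 13.10, and the complement regulator Cd55 9.02 and 7.07, against 10.13 to 10.53. Calls ended for Cd72 and Ly6d without leukaemia array 1 (adjusted p = 0.0935 and 0.448). Calls ended for Cd55 without leukaemia array 2 (adjusted p = 0.168). Calls ended for Ly6d without any 1 of B220+ arrays 2 and 3 (adjusted p = 0.0509 to 0.051).

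The size of this fall depended on the control. Wild-type precursors had Fcer2a at 6.02 to 6.22 and Cr2 at 5.49 to 5.56, as low as the leukaemias, and against them the changes were 0.48 ± 0.92 (SE, adjusted p = 0.751) and 0.31 ± 0.30 (SE, adjusted p = 0.489). Cpm, in contrast, was 11.40 to 11.58 in wild-type precursors and fell against either control (-6.20 ± 0.35, SE, adjusted p = 8.18e-10). Against the precursors 14 of 26 surface genes fell, with a median of -1.40, where 12% of all genes were lower.

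**Figure D2:**
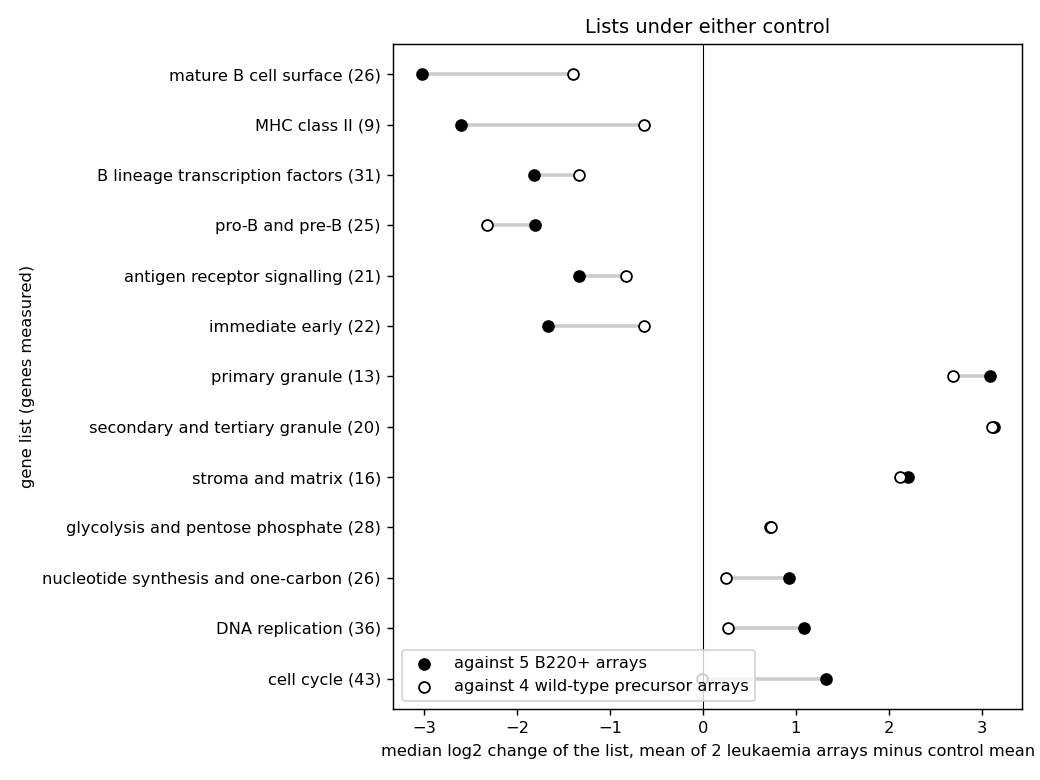
Median log2 change of 13 gene lists in the 2 leukaemia arrays against the 5 B220+ arrays (filled) and against 4 wild-type precursor arrays (open). MHC class II moves from -2.60 to -0.63 and cell cycle from 1.33 to -0.01, while the granule lists are at 3.09 and 3.13 against B220+ cells and 2.69 and 3.11 against precursors.

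All 9 measured MHC class II genes fell, with a median of -2.60. Cd74, the invariant chain that guards the peptide groove, was 10.61 and 10.50 against 12.84, 12.79, 12.83, 12.77 and 12.71 on the B220+ arrays (-2.23 ± 0.41, SE, adjusted p = 0.00236). H2-Aa, an antigen-presenting chain, was 10.06 and 10.62 against 12.64, 12.78, 12.76, 12.61 and 12.58 (-2.33 ± 0.50, adjusted p = 0.00552), and H2-Eb2 changed by -2.64 ± 0.53 (7.04 and 7.48 against 9.71 to 10.13, adjusted p = 0.00364). No array of one group reached the other in these genes. H2-Oa (7.44 and 8.72 on arrays 1 and 2), H2-Ob (8.06 and 10.10) and H2-DMa (8.52 and 10.41), whose products edit peptide loading, were higher on array 2 than on array 1, and both arrays were below all B220+ arrays (changes -2.61 ± 0.56, adjusted p = 0.00553, -2.81 ± 0.94, adjusted p = 0.0491 and -1.96 ± 0.55, adjusted p = 0.0233). Without leukaemia array 1 the list had 2 falls, and against wild-type precursors 0 of 9 genes passed in limma, with 1 at an unadjusted p under 0.05. Calls ended for H2-Aa, H2-Oa, H2-Ob and H2-DMa without leukaemia array 1 (adjusted p = 0.0695, 0.0968, 0.378 and 0.334). Calls ended for H2-Ob without any 1 of the B220+ arrays (adjusted p = 0.067 to 0.084).

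Transcription factors of the B lineage fell in larger part. Of 31 measured, 19 fell and 1 rose, with a median of -1.82 (-2.39 on array 1 and -1.27 on array 2). Ikzf3, which encodes Aiolos, was 8.54 and 7.33 against 12.24, 12.44, 12.46, 12.29 and 12.43 (-4.43 ± 0.36, SE, adjusted p = 9.68e-06). Foxo1, a factor needed for the pre-B stage, was 7.73 and 8.23 against 11, 11.42, 11.21, 11.14 and 11.34 (-3.24 ± 0.34, adjusted p = 5.46e-05). Klf2 (8.01 and 8.04 against 10.28 to 10.63, change -2.45 ± 0.25, adjusted p = 3.99e-05), a quiescence factor, and Ets1 (9.45 and 9.44 against 11.22 to 11.44, change -1.88 ± 0.17, adjusted p = 2.09e-05) were alike on both leukaemia arrays. Others were split between them. Aff3 was 7.32 on array 1 and 11.63 on array 2, above the B220+ range of 11.17 to 11.38. Irf8, used by B cells, monocytes and dendritic cells, was 9.27 and 12.13 (B220+ 11.71 to 12.10), and Bach2 6.90 and 9.28 (B220+ 11.89 to 12.20, change -3.95 ± 0.47, adjusted p = 0.000125). The gene that rose was Ikzf2, which encodes Helios (7.56 and 9.10 against 6.67 to 7.07, change 1.44 ± 0.41, adjusted p = 0.0253), and it was named after its value was seen. Calls ended for Ikzf2 without leukaemia array 2 (adjusted p = 0.315). Calls ended for Ikzf2 without B220+ array 2 (adjusted p = 0.0513). Calls arose for Aff3 and Irf8 without leukaemia array 2 (adjusted p = 1.18e-05 and 0.011).

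Signalling components below the antigen receptor fell without rises. Of 21 genes 17 fell, with a median of -1.33, against 10 falls without leukaemia array 1. The kinase gene Syk was 9.69 and 10.30 against 11.78, 12, 11.98, 11.83 and 11.93 (-1.91 ± 0.17, SE, adjusted p = 1.79e-05) and Btk, the kinase next in line, 9.32 and 9.79 against 10.41, 10.56, 10.57, 10.55 and 10.45 (-0.95 ± 0.10, adjusted p = 5.42e-05). Rasgrp1, a Ras activator, was 8.30 and 7.59 against 11.64 to 11.91 (-3.82 ± 0.40, adjusted p = 4.75e-05), and the adaptor Grap 7.63 and 8.21 against 10.28 to 10.57 (-2.52 ± 0.22, adjusted p = 1.53e-05). The fall of Btk was the smallest of the 4, and no arrays overlapped. Blnk, the adaptor that couples the pre-B cell receptor (8.10 and 9.43 against 11.76 to 11.91, change -3.11 ± 0.88, adjusted p = 0.0247), Blk (7.53 and 8.98 against 11.20 to 11.35, change -3.01 ± 0.66, adjusted p = 0.00625) and Rasgrp3 (8.44 and 7.13 against 10.13 to 10.77, change -2.67 ± 0.65, adjusted p = 0.0117) differed most between the leukaemia arrays, with Blnk and Blk lower on array 1 and Rasgrp3 lower on array 2. Calls ended for Blnk and Blk without leukaemia array 1 (adjusted p = 0.214 and 0.104). Calls ended for Rasgrp3 without leukaemia array 2 (adjusted p = 0.106).

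Genes listed for pro-B and pre-B cells separated the leukaemia arrays. Of 25 measured, 13 fell and 1 rose (Nrgn, 9.30 and 9.40 against 7.65 to 8.39, change 1.37 ± 0.32, adjusted p = 0.00974), with a median of -1.81, and 8 fell and 0 rose without leukaemia array 1. Dntt, the enzyme that adds bases at antibody gene joints, was 5.08 on array 1 and 11.62 on array 2, with 8.59, 9.30, 9.33, 10.08 and 9.86 on the B220+ arrays. The leukaemia arrays thus lay on either side of the B220+ cells and the mean difference was -1.08 ± 1.60, adjusted p = 0.648. Igll1, a surrogate light chain gene, was 7.07 and 10.99 against 12.27 to 12.92, and Sox4 6.45 and 9.84 against 9.90 to 10.20. Rag1 was 5.58 on array 1 and 8.08 on array 2 against 11.02, 11.38, 11.32, 11.27 and 11.12 (-4.39 ± 1.04, SE, adjusted p = 0.01), and Vpreb3, a partner of the surrogate light chain, 6.66 and 8.23 against 12.86, 12.91, 13.03, 13.11 and 13.15 (-5.56 ± 1.20, adjusted p = 0.00589). Both fell on either array, array 1 being the lower. By contrast Cecr2 (8.91 and 7.85 against 11.99 to 12.19, change -3.73 ± 0.40, adjusted p = 5.67e-05) and the secretion regulator Cplx2 (7.28 and 6.83 against 9.06 to 9.24, change -2.10 ± 0.27, adjusted p = 0.000183) were lower on array 2. Of the whole list, 8 genes were higher on array 2 by at least 2 log2 and 0 on array 1. Its members were chosen with earlier results of these data known. The counts therefore describe these members and not the pro-B and pre-B stages as a whole. Hdac5, a histone deacetylase, and Smarca4, a chromatin remodeller, changed by -1.81 ± 0.21 (8.10 and 8.39 against 9.89 to 10.21, adjusted p = 0.000107) and -1.49 ± 0.18 (10.63 and 11.15 against 12.28 to 12.49, adjusted p = 0.000149). Calls ended for Rag1, Vpreb3 and Nrgn without leukaemia array 1 (adjusted p = 0.154, 0.078 and 0.0586). Calls arose for Igll1 and Sox4 without leukaemia array 2 (adjusted p = 0.0175 and 0.00167).

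Stem and progenitor genes were high mainly on leukaemia array 2. Of 16 measured, 7 rose and 0 fell, with medians of 0.31 on array 1 and 2.45 on array 2, and 8 of 16 were higher on array 2 by at least 2 log2. Cd34, a sialomucin of progenitors and vessels, was 8.58 and 11.96 on leukaemia arrays 1 and 2 against 6.16, 5.85, 5.71, 5.62 and 5.82 on the B220+ arrays, a change of 4.44 ± 0.73 (SE, adjusted p = 0.0011) or 21.7-fold, and both arrays were above all B220+ arrays. Angpt1, a ligand made by progenitors, was 8.03 and 10.52 against 5.56 to 6.24 (3.35 ± 0.78, adjusted p = 0.00908). Kit, the stem cell factor receptor, was 8.70 and 10.25 against 6.57 to 7.04 (2.72 ± 0.62, adjusted p = 0.00784), and Gata2, a progenitor factor, 8.49 and 8.91 against 6.81 to 7.34 (1.71 ± 0.25, adjusted p = 0.000476). In these genes both arrays were above the controls, array 2 further. Mecom, which encodes the leukaemia-associated factor EVI1, was 10.64 on array 2 and 5.48 on array 1, where the B220+ arrays had 5.15, 5.15, 5.12, 5.05 and 5.11 (2.94 ± 0.86, adjusted p = 0.0277). Flt3, a cytokine receptor of lymphoid and myeloid progenitors, was 11.77 on array 2 but 6.05 on array 1, below the B220+ arrays (7.40, 6.74, 6.94, 8.56 and 7.07), so its mean change was 1.57 ± 1.04, adjusted p = 0.29. On the 7 heterozygous leukaemias Mecom ran from 5.08 to 5.30 with a median of 5.23, and Flt3 from 10.33 to 11.52 with a median of 11.24. Without leukaemia array 2 the change of Mecom was 0.36 (adjusted p = 0.00968), and without array 1 it was 5.52. Without leukaemia array 2 the list had 4 rises and 1 fall. Calls ended for Angpt1 and Kit without leukaemia array 2 (adjusted p = 0.118 and 0.0885). Calls arose for Flt3 without leukaemia array 1 (adjusted p = 0.000526).

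**Figure D3:**
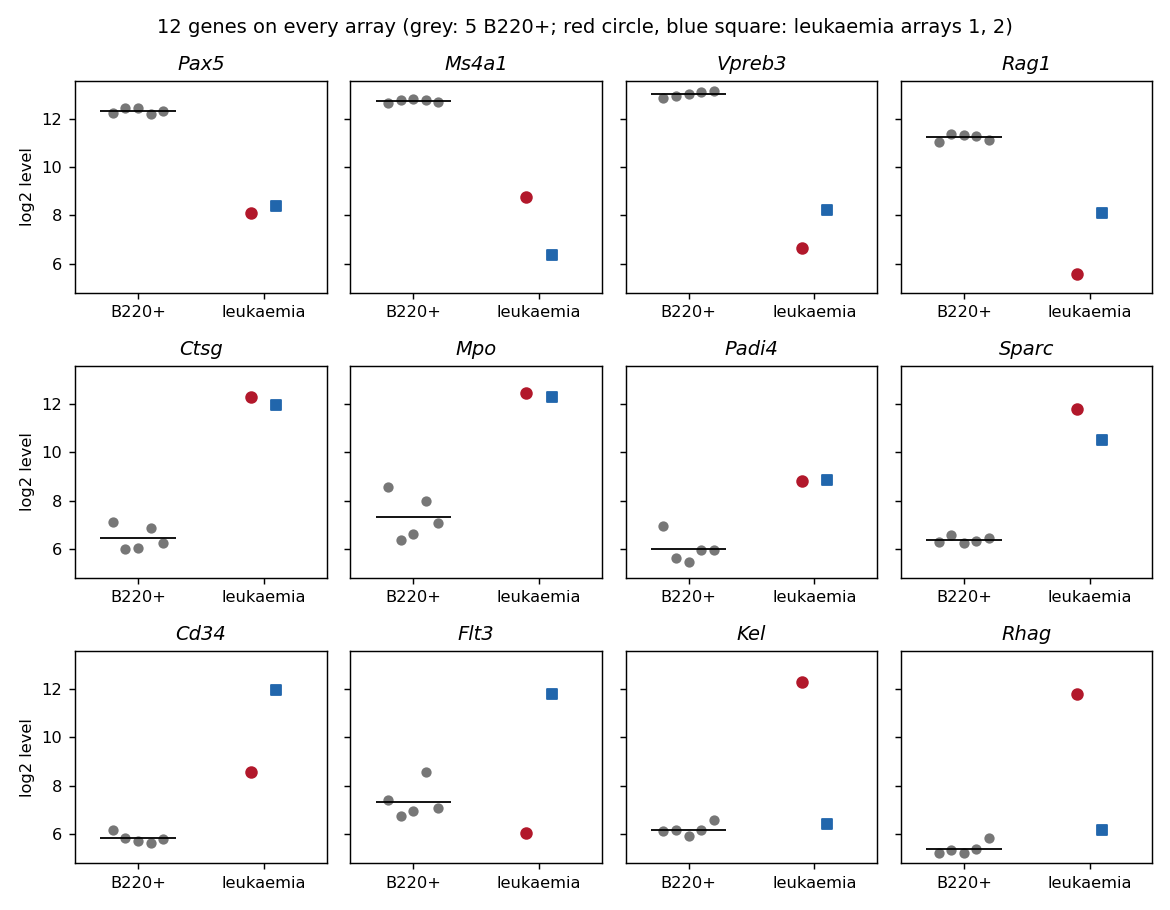
Log2 level of 12 genes on every array, with grey points for the 5 B220+ arrays, a line at their mean, a red circle for leukaemia array 1 and a blue square for array 2. Ctsg and Mpo are at 12.29 and 11.96 and at 12.44 and 12.26 on the leukaemia arrays, whereas Flt3 is at 11.77 only on array 2 and Kel at 12.30 only on array 1.

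Erythroid genes were mostly far higher on leukaemia array 1 than on array 2. The 23 measured genes of the red cell membrane and haem synthesis had medians of 3.82 on array 1 and 0.10 on array 2, and 19 of them were higher on array 1 by at least 2 log2. In 9 of the 23 both leukaemia arrays were above every B220+ array, against 16.9% of all genes. Kel, which carries the Kell blood group, was 12.30 on array 1 and 6.42 on array 2, with 6.12, 6.17, 5.92, 6.17 and 6.58 on the B220+ arrays. Rhag, the Rh-associated glycoprotein, was 11.78 and 6.16 against 5.22, 5.33, 5.21, 5.38 and 5.83, and Rhd 12.21 and 6.8 against 6.26, 6.35, 6.11, 6.56 and 6.72. Array 2 was thus at or just above the B220+ level, and array 1 higher than any of them. None of the 3 passed the test of the mean (changes 3.17 ± 1.40, adjusted p = 0.125, 3.58 ± 1.51, adjusted p = 0.111 and 3.10 ± 1.25, adjusted p = 0.0949). The list gave 2 rises, the haem enzyme Alad (13.19 and 11.86 against 10.18 to 11.07, change 1.85 ± 0.57, adjusted p = 0.0355) and the transferrin receptor Tfrc (12.18 and 10.87 against 10.05 to 10.33, change 1.33 ± 0.32, adjusted p = 0.0118), and 0 without leukaemia array 1, 21 without array 2 and 1 without any of B220+ arrays 2, 4 and 5. Globin genes are not analysed here, apart from the embryonic Hbb-bh1 at 4.83 and 4.73 (B220+ 4.77 to 4.98). Calls ended for Alad and Tfrc without leukaemia array 1 (adjusted p = 0.331 and 0.228). Calls ended for Alad without any 1 of B220+ arrays 2, 4 and 5 (adjusted p = 0.0552 to 0.0714). Calls arose for Kel, Rhag and Rhd without leukaemia array 2 (adjusted p = 0.0067, 0.0132 and 0.00364).

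Several erythroid regulators were also higher on array 1. Epor, the erythropoietin receptor, was 10.66 on array 1 and 6.56 on array 2 (B220+ 6.18 to 6.33), and the erythroid genes Trim10 (11.45 and 6.25, B220+ 5.87 to 6.48) and Tspo2 (11.11 and 6.12, B220+ 5.75 to 6.43) were likewise high on array 1. Of 12 genes 3 rose. Gfi1b, a repressor of red cell and platelet precursors, was 11.39 and 10.64 against 8.75, 8.33, 8.22, 8.31 and 8.74 (2.55 ± 0.56, SE, adjusted p = 0.00662), Nfe2, a factor of the same lineages, 10.56 and 9.39 against 7.08, 6.49, 6.42, 6.68 and 6.72 (3.30 ± 0.55, adjusted p = 0.00114), and Tal1 10.36 and 7.40 against 6.94 to 7.20 (1.79 ± 0.56, adjusted p = 0.038). Gfi1b and Nfe2 were high on both arrays and Tal1 on array 1. The count was 1 without leukaemia array 1 and 8 without array 2. Calls ended for Gfi1b and Tal1 without leukaemia array 1 (adjusted p = 0.0853 and 0.637). Calls ended for Tal1 without any 1 of the B220+ arrays (adjusted p = 0.0583 to 0.0643). Calls arose for Epor, Trim10 and Tspo2 without leukaemia array 2 (adjusted p = 0.00023, 0.00784 and 0.00614).

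**Figure D4:**
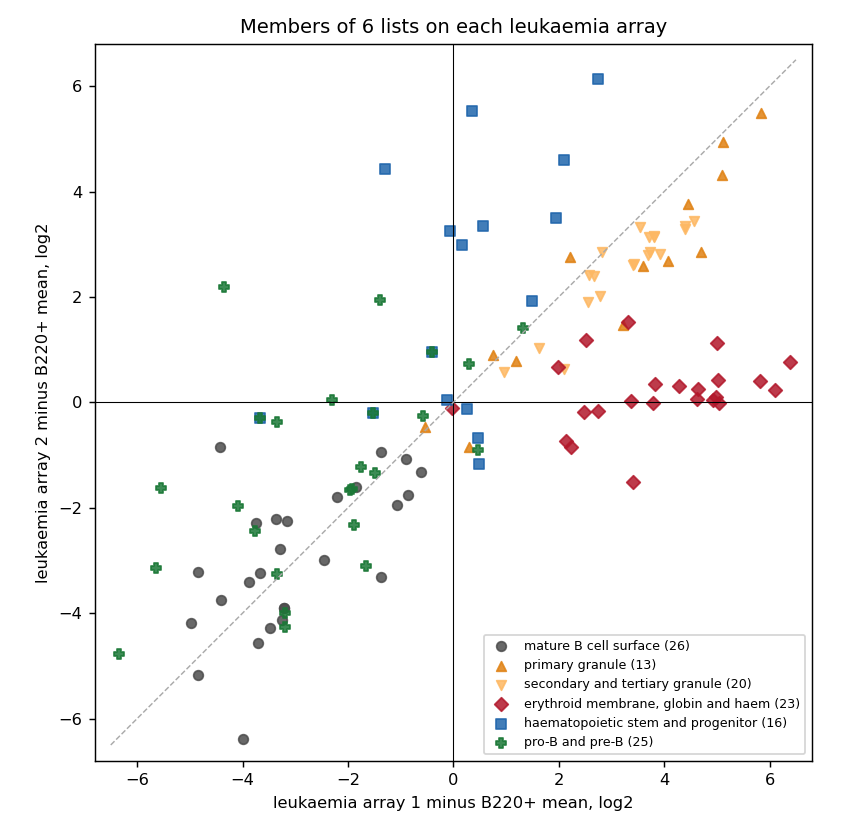
Difference of leukaemia array 1 (x axis) and array 2 (y axis) from the mean of the B220+ arrays (log2), 1 point per gene of 6 lists, with a dashed line where both are equal. Granule genes and mature B cell genes lie along the line, most erythroid genes lie to the right near 0 on the y axis (Kel is 6.11 and 0.23) and several progenitor genes lie above the line (Mecom is 0.36 and 5.52).

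Primary granule genes were high on both leukaemia arrays. Of 13 measured, 11 rose and 0 fell, with a median of 3.09. Ctsg, which encodes cathepsin G, was 12.29 and 11.96 against 7.11, 6.01, 6.06, 6.86 and 6.25 on the B220+ arrays, a change of 5.67 ± 0.68 (SE, adjusted p = 0.000138) or 50.8-fold. Mpo, myeloperoxidase, was 12.44 and 12.26 against 8.56, 6.36, 6.63, 7.97 and 7.06 (5.03 ± 0.84, adjusted p = 0.00118), and Prtn3, proteinase 3, 11.76 and 10.98 against 7.11, 6.56, 6.32, 6.92 and 6.42 (4.71 ± 0.46, adjusted p = 3.28e-05). The leukaemia arrays lay above every B220+ array. Elane, neutrophil elastase, was 12.55 and 11.87 against 7.44 to 8.93 (4.11 ± 0.65, adjusted p = 0.000813). Fcnb, a secreted lectin (10.67 and 9.67 against 6.76 to 7.81, change 3.09 ± 0.35, adjusted p = 8.65e-05), Igfbp4 (11.44 and 10.04 against 7.12 to 7.57, change 3.38 ± 0.33, adjusted p = 3.07e-05), Ms4a3, a marker of granulocyte and monocyte progenitors (10.34 and 8.50 against 5.51 to 6.02, change 3.78 ± 0.46, adjusted p = 0.000138), and Cst7 (9.99 and 8.25 against 6.26 to 7.49, change 2.34 ± 0.48, adjusted p = 0.00454) were higher on array 1. The list's mean level was 10.91 and 10.24 on the leukaemia arrays and 7.59 to 8.19 on the B220+ arrays. The rises numbered 7 without leukaemia array 1. Calls ended for Cst7 without leukaemia array 1 (adjusted p = 0.0991).

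Heterozygous leukaemias had less of these genes. Ctsg ran from 5.98 to 8.92 with a median of 7.49 over the 7 heterozygous arrays, below both leukaemia arrays with 2 Pax5 copies, and the test of that difference gave 4.78 ± 0.65 (adjusted p = 0.00223). For Prtn3 the heterozygous range was 6.31 to 8.52 with a median of 7.31 and the difference 3.98 ± 0.44 (adjusted p = 0.0004), for Mpo 6.36 to 9.85 with a median of 8.30 and 4.13 ± 0.81 (adjusted p = 0.0205), and for Fcnb 6.32 to 7.37 with a median of 6.59 and 3.44 ± 0.33 (adjusted p = 0.000166). Of the 13 primary granule genes 7 were higher than in heterozygous leukaemias and 1 lower (Ctsc, which encodes the protease that activates the others, at -1.02 ± 0.20, adjusted p = 0.0232), and of the 20 later granule genes 7 were higher and 0 lower. Over all genes 373 (1.87%) differed in this contrast, 1.16% higher and 0.712% lower. The total was 281 without leukaemia array 1 and 2137 without array 2. In that contrast calls ended for Mpo and Ctsc without leukaemia array 1 (adjusted p = 0.144 and 0.163).

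Later granule genes were high on both leukaemia arrays too, but they also varied among the B220+ arrays. Of 20 genes 12 rose and 0 fell, with a median of 3.13. Ly6g, the neutrophil marker, was 12.45 and 11.79 on leukaemia arrays 1 and 2 and 11.57, 6.46, 6.49, 9.75 and 8.96 on B220+ arrays 1 to 5, and S100a8, an abundant neutrophil protein, 13.23 and 12.43 and 12.42, 7.82, 8.27, 10.45 and 10.11. B220+ array 1 was the highest control in both, followed by arrays 4 and 5, and neither gene passed (3.48 ± 1.41, adjusted p = 0.0971 and 3.02 ± 1.20, adjusted p = 0.0916). Both were named after their values were seen. Ngp, a neutrophil granule protein, was 13.36 and 13.20 against 12.74, 9.08, 9.33, 11.51 and 11.25 (2.50 ± 1.06, adjusted p = 0.111). Chil3, a chitinase-like protein, was 11.07 and 9.95 against 9.03, 5.51, 5.26, 7.24 and 5.47 (4.01 ± 0.91, SE, adjusted p = 0.00798), Cd177 11.36 and 10.48 against 9.06, 7.00, 6.97, 7.72 and 7.63 (3.24 ± 0.63, adjusted p = 0.00314), and Padi4, the enzyme that citrullinates histones, 8.82 and 8.84 against 6.97, 5.61, 5.48, 5.95 and 5.97 (2.84 ± 0.32, adjusted p = 0.0001). Each of these 3 kept the leukaemia arrays above every B220+ array. Itgb2l (9.68 and 9.04 against 6.63 to 8.26, change 2.23 ± 0.39, adjusted p = 0.0015), the leukotriene receptor Ltb4r1 (7.82 and 7.23 against 6.12 to 6.4, change 1.34 ± 0.18, adjusted p = 0.000313), Hp, haptoglobin (11.48 and 10.37 against 6.09 to 8.80, change 3.85 ± 1.05, adjusted p = 0.0209), and Wfdc21 (9.31 and 7.84 against 7.01 to 7.53, change 1.36 ± 0.28, adjusted p = 0.00456) rose as well. The list's mean level was 10.19, 7.14, 7.28, 8.76 and 8.43 on the B220+ arrays and 11.58 and 10.88 on the leukaemia arrays. Without B220+ array 1, 17 of 20 rose, where 8.13% of all genes rose (11.5% fell). The count was 3 without leukaemia array 1, where 6.33% rose and 4.88% fell over all genes. The part of neutrophil RNA in the B220+ samples was not tested. Calls ended for Chil3, Cd177, Hp and Wfdc21 without leukaemia array 1 (adjusted p = 0.0943, 0.0503, 0.168 and 0.0562).

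**Figure D5:**
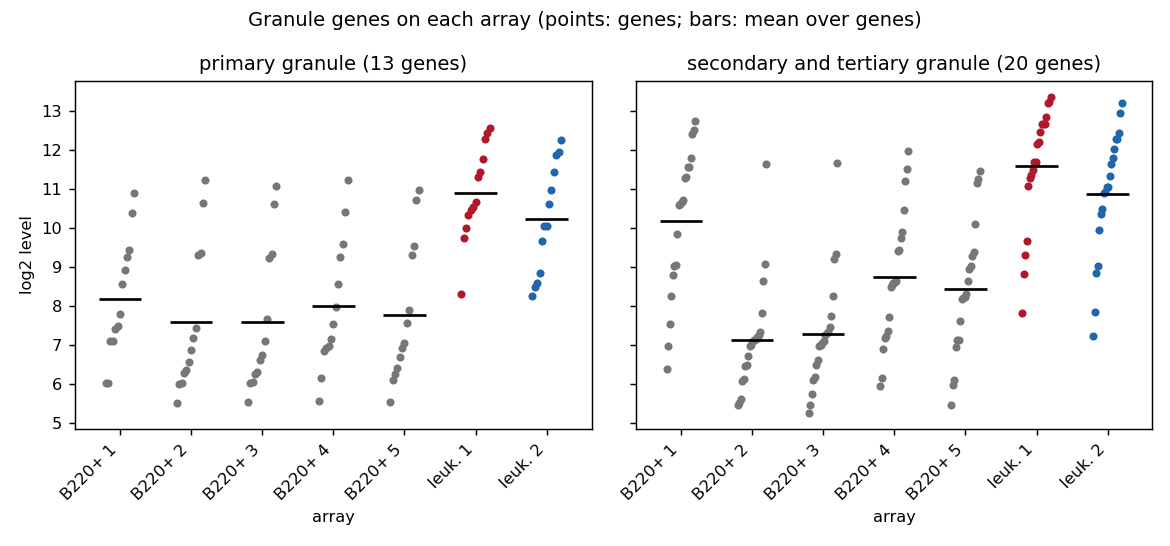
Log2 levels of the primary granule genes (left) and the secondary and tertiary granule genes (right) on each of the 7 arrays, 1 point per gene, with a bar at the mean over the list. The bars of the later granule genes run from 7.14 to 10.19 over the B220+ arrays, highest on array 1, and stand at 11.58 and 10.88 on the leukaemia arrays.

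Neutrophil receptors gave 7 rises and 0 falls among 12 genes, with a median of 2.39. Csf3r, the receptor for the granulocyte growth factor G-CSF, was 10.32 and 9.71 against 8.59, 6.28, 6.18, 7.14 and 7.04 (2.97 ± 0.55, SE, adjusted p = 0.00226). Clec5a was 9.47 and 9.04 against 6.81, 5.18, 5.17, 5.56 and 5.43 (3.63 ± 0.71, adjusted p = 0.00344), Trem3 changed by 3.39 ± 0.79 (10.92 and 10.14 against 5.89 to 9.32, adjusted p = 0.00931) and the decoy receptor Il1r2 by 2.16 ± 0.49 (7.87 and 7.49 against 5.22 to 6.15, adjusted p = 0.00759). B220+ array 1 was again the highest control for Csf3r and Clec5a, below both leukaemia arrays. Of 12 granulocyte transcription factors 3 rose, all of the C/EBP family: Cebpe, which drives late granule genes (10.13 and 9.40 against 8.28, 7.33, 7.19, 7.35 and 7.49, change 2.24 ± 0.29, adjusted p = 0.000223), Cebpa, needed for the granulocyte lineage (8.35 and 7.85 against 6.56, 6.52, 6.39, 6.5 and 6.51, change 1.60 ± 0.33, adjusted p = 0.00417), and Cebpd (6.68 and 6.37 against 5.76, 5.38, 5.42, 5.61 and 5.55, change 0.98 ± 0.23, adjusted p = 0.00963). The other 9 did not pass, among them Myb, a progenitor factor (10.72 and 12.05, B220+ 12.15 to 12.34), and Id2 (10.85 and 11.74, B220+ 9.74 to 10.69). Without leukaemia array 1 the receptor list had 2 rises and the factor list 1, and without B220+ array 2 or 3 the receptor list had 4. Calls ended for Trem3, Il1r2, Cebpa and Cebpd without leukaemia array 1 (adjusted p = 0.0962, 0.0779, 0.063 and 0.112).

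Macrophage, stromal, vessel and platelet genes were higher in leukaemic marrow than in the B220+ cells, and more so on array 1. Of 23 monocyte and macrophage genes 12 rose and 1 fell (Ctss, which antigen-presenting cells also use, 9.61 and 9.71 against 10.26 to 10.63, change -0.83 ± 0.23, adjusted p = 0.022), with medians of 3.03 on array 1 and 1.35 on array 2. Vcam1, the adhesion molecule of marrow macrophages and stroma, was 11.37 and 8.69 on leukaemia arrays 1 and 2 against 6.30, 6.38, 6.4, 6.49 and 6.13 (3.69 ± 0.87, SE, adjusted p = 0.00994). Trf, transferrin, was 10.54 and 10.48 against 6.97 to 7.33 (3.32 ± 0.65, adjusted p = 0.00319), and Csf1r, the macrophage growth factor receptor, 8.68 and 9.06 against 6.25 to 6.78 (2.36 ± 0.58, adjusted p = 0.0122). Those of iron recycling differed most between the arrays: Hmox1, which breaks down haem, was 11.80 and 7.96 (B220+ 7.25 to 7.90, change 2.38 ± 1.21, adjusted p = 0.178), and Slc40a1, the iron exporter ferroportin, 11.34 and 8.30 (B220+ 5.50 to 6.54, change 4.02 ± 0.99, adjusted p = 0.0122). The mannose receptor Mrc1 was 10.09 and 7.89 (B220+ 5.49 to 5.73, change 3.36 ± 0.80, adjusted p = 0.01). The list had 1 rise without leukaemia array 1. Calls ended for Vcam1, Csf1r, Slc40a1, Mrc1 and Ctss without leukaemia array 1 (adjusted p = 0.175, 0.0574, 0.203, 0.167 and 0.139). Calls ended for Csf1r and Ctss without leukaemia array 2 (adjusted p = 0.0655 and 0.0609). Calls arose for Hmox1 without leukaemia array 2 (adjusted p = 0.0442).

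Among 16 stroma and matrix genes 10 rose and 0 fell, with a median of 2.21. Sparc, a matrix glycoprotein, was 11.77 and 10.50 against 6.31, 6.58, 6.26, 6.34 and 6.44 (4.75 ± 0.51, SE, adjusted p = 5.95e-05), Bgn, the proteoglycan biglycan, 11.09 and 9.22 against 5.89, 6.01, 5.91, 6.06 and 5.93 (4.2 ± 0.59, adjusted p = 0.000374), and Igfbp5 9.80 and 9.95 against 6.23 to 6.42 (3.56 ± 0.73, adjusted p = 0.0045). The B220+ arrays were at low and even levels in these genes. Dcn, decorin, changed by 3.65 ± 0.63 (9.93 and 8.27 against 5.39 to 5.56, adjusted p = 0.0015). The niche factors of mesenchymal stroma stood higher on array 1, with Cxcl12 at 11.16 and 7.87 (B220+ 6.04 to 6.4, change 3.32 ± 1.07, adjusted p = 0.0424), Kitl at 8.78 and 5.55 (B220+ 4.48 to 4.72, change 2.53 ± 0.74, adjusted p = 0.0276) and Lepr, which marks these cells, at 8.75 and 6.23 (B220+ 4.91 to 4.99, change 2.53 ± 0.68, adjusted p = 0.0186). The count was 4 without leukaemia array 1 and 6 without B220+ array 3. Calls ended for Cxcl12, Kitl and Lepr without leukaemia array 1 (adjusted p = 0.437, 0.44 and 0.303). Calls ended for Cxcl12 without any 1 of the B220+ arrays (adjusted p = 0.0604 to 0.0725). Calls ended for Kitl without B220+ array 3 (adjusted p = 0.0512).

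Of 15 endothelial genes 14 rose, among them Fabp4 (9.55 and 8.30 against 5.31, 5.28, 5.23, 5.31 and 5.27, change 3.64 ± 0.68, adjusted p = 0.00236), the sinusoidal receptor Stab2 (9.81 and 8.56 against 6.45 to 6.72, change 2.59 ± 0.54, adjusted p = 0.00475), Emcn (8.71 and 7.78 against 5.47 to 5.59, change 2.72 ± 0.56, adjusted p = 0.00456) and the VEGF receptors Flt1 (7.71 and 7.08 against 6.18 to 6.31, change 1.16 ± 0.24, adjusted p = 0.00457) and Kdr (8.57 and 6.86, change 1.88 ± 0.54, adjusted p = 0.0259). Egfl7 was higher on array 2 (8.94 and 10.84 against 7.74 to 8.17, change 2.0 ± 0.49, adjusted p = 0.0119). The list had 2 rises without leukaemia array 1. Pecam1, which B cells also carry, was below the B220+ range on array 1 and at its lower edge on array 2 (8.74 and 10.47 against 10.49 to 10.95). Of 14 megakaryocyte and platelet genes 6 rose. Ppbp, a platelet chemokine, was 13.37 and 12.06 against 8.08, 7.61, 7.10, 8.01 and 8.19 (4.91 ± 0.79, SE, adjusted p = 0.000931), Pf4, platelet factor 4, 10.99 and 8.73 against 6.14, 6.14, 5.94, 6.31 and 6.27 (3.70 ± 0.94, adjusted p = 0.0148), and Thbs1, thrombospondin 1, 12.17 and 10.71 against 6.5 to 7.90 (4.35 ± 0.99, adjusted p = 0.00805). Gp9 (11.24 and 9.49 against 6.71 to 6.99, change 3.56 ± 0.94, adjusted p = 0.0172), Tubb1 (10.89 and 8.72 against 6.64 to 6.85, change 3.03 ± 0.99, adjusted p = 0.0444) and F2rl2 (10.49 and 8.23 against 5.92 to 6.33, change 3.26 ± 1.04, adjusted p = 0.0415) complete the rises, all higher on array 1. The count fell to 1 without leukaemia array 1. Calls ended for Stab2, Emcn, Flt1, Kdr, Pf4, Thbs1, Gp9, Tubb1 and F2rl2 without leukaemia array 1 (adjusted p = 0.0875, 0.0709, 0.0897, 0.335, 0.199, 0.102, 0.191, 0.361 and 0.346). Calls ended for Egfl7 without leukaemia array 2 (adjusted p = 0.169). Calls ended for Kdr without B220+ array 3 (adjusted p = 0.0505). Calls ended for Tubb1 and F2rl2 without any 1 of the B220+ arrays (adjusted p = 0.0599 to 0.0748). Calls arose for Pecam1 without leukaemia array 2 (adjusted p = 0.00119).

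Markers of further cell types were measured as well, and are read beside all genes, of which 9.48% rose and 11.9% fell. Among 12 dendritic cell genes 0 passed in limma, also with an unadjusted p under 0.05, but 7 were higher on array 2 than on array 1 by at least 2 log2. The list's mean level was 7.06 and 9.08 on leukaemia arrays 1 and 2 and 7.73 to 8.95 on the B220+ arrays. Of 14 T cell genes 1 rose, the adaptor Lat (9.21 and 9.82 against 7.62 to 7.91, change 1.72 ± 0.25, adjusted p = 0.000457), and 2 fell, Cd2, which mouse B cells also carry (8.0 and 7.34 against 11.09 to 11.46, change -3.61 ± 0.65, adjusted p = 0.00192), and Il2ra. The T cell list had a mean level of 7.74 and 7.71 against 7.42 to 7.66. Among 13 NK cell genes 0 passed in limma and 3 had an unadjusted p under 0.05, at a mean level of 6.54 and 6.96 against 6.47 to 7.42. Eosinophil, basophil and mast cell genes had 4 rises among 15: the basophil protease Mcpt8 (9.69 and 8.79 against 7.52, 5.23, 5.22, 5.53 and 5.54, change 3.43 ± 0.60, adjusted p = 0.00166), the mast cell protease Cpa3 (9.69 and 7.61 against 6.52, 5.20, 5.33, 5.33 and 5.44, change 3.09 ± 0.73, adjusted p = 0.00947), Kit and Gata2. Of 12 plasma cell genes 2 rose, Jchain, which joins secreted antibody units (11.71 and 9.89 against 6.61, 6.12, 6.52, 6.88 and 7.12, change 4.15 ± 0.58, adjusted p = 0.000356), and Tnfrsf17 (6.85 and 5.99 against 5.57 to 5.90, change 0.66 ± 0.19, adjusted p = 0.0276). Irf4 (7.62 and 7.35 against 11.40, 11.55, 11.72, 11.55 and 11.74, change -4.10 ± 0.47, adjusted p = 0.0001), Mzb1 (8.41 and 8.23 against 10.81 to 11.43, change -2.71 ± 0.47, adjusted p = 0.00159), Slamf7 (8.25 and 8.55 against 11.21 to 11.56, change -3.00 ± 0.62, adjusted p = 0.00466) and Sdc1 (8.50 and 8.58 against 9.35 to 9.63, change -0.91 ± 0.26, adjusted p = 0.0273) fell. The genes of this paragraph were named after their values were seen, and what these cells contributed to the other results was not tested. For the T cell genes the count of rises was 2 without leukaemia array 1 or B220+ array 1. For the basophil and mast cell genes the count of rises was 7 without leukaemia array 2. For the plasma cell genes the count of rises was 1 without leukaemia array 1, B220+ array 2, B220+ array 4 or B220+ array 5. Calls ended for Cpa3, Tnfrsf17 and Sdc1 without leukaemia array 1 (adjusted p = 0.163, 0.449 and 0.151). Calls ended for Sdc1 without leukaemia array 2 (adjusted p = 0.0773). Calls ended for Tnfrsf17 without any 1 of B220+ arrays 2, 4 and 5 (adjusted p = 0.0501 to 0.0516). Calls ended for Sdc1 without B220+ array 3 (adjusted p = 0.0548).

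The largest rise of a single gene was that of Kcnma1, which encodes a calcium-activated potassium channel. It was 11.52 and 13.50 on leukaemia arrays 1 and 2 and 6.79, 6.64, 6.09, 6.47 and 6.44 on the B220+ arrays, a change of 6.02 ± 0.39 (SE, adjusted p = 1.62e-06) or 65.1-fold, with no overlap. The heterozygous leukaemias lay at 12.94 to 13.78 with a median of 13.62. Wild-type precursors had 8.68 to 13.29, against which the change was 1.0 ± 1.78 (SE, adjusted p = 0.729), so the size of this rise depended on the control. Ly6a2, a Ly6 family gene, was 11.84 and 11.92 on the leukaemia arrays and 10.49, 5.86, 6.36, 5.30 and 8.26 on the B220+ arrays, a wide spread among controls, and changed by 4.63 ± 1.33 (adjusted p = 0.0259). Calls ended for Ly6a2 without leukaemia array 1 (adjusted p = 0.126). Calls ended for Ly6a2 without leukaemia array 2 (adjusted p = 0.0889). Calls ended for Ly6a2 without any 1 of B220+ arrays 2 and 3 (adjusted p = 0.0521 to 0.0542).

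Genes of division were higher in leukaemic marrow than in B220+ cells. Of 43 cell cycle genes 30 rose and 1 fell (Cdkn1b, a cell cycle inhibitor, 11.13 and 10.38 against 11.41 to 11.68, change -0.82 ± 0.22, adjusted p = 0.0194), with a median of 1.33, and of 36 replication genes 29 rose and 0 fell, with a median of 1.09. Cenpf, a kinetochore protein, was 10.23 and 9.52 against 8.06, 7.27, 7.39, 7.80 and 8.03 (2.17 ± 0.25, SE, adjusted p = 9.69e-05), and Kif20a, a mitotic kinesin, 10.33 and 9.87 against 8.63, 7.59, 7.72, 8.31 and 8.54 (1.94 ± 0.25, adjusted p = 0.000232). Kif23 (10.93 and 10.57 against 8.44 to 9.56, change 1.71 ± 0.25, adjusted p = 0.000471) and Cdc20, an activator of the anaphase complex (10.01 and 9.53 against 8.12 to 8.88, change 1.36 ± 0.19, adjusted p = 0.000324), rose as well. Mcm3, a subunit of the replicative helicase, was 10.40 and 10.41 against 9.15, 9.01, 8.83, 9.11 and 9.35 (1.32 ± 0.16, adjusted p = 0.000148), and Pole, a replicative polymerase, 10.45 and 10.18 against 8.09 to 8.80 (1.91 ± 0.24, adjusted p = 0.000186). Both leukaemia arrays were above every B220+ array in these 6 genes. Orc6 changed by 1.15 ± 0.16 (10.25 and 9.96 against 8.63 to 9.14, adjusted p = 0.000331) and Mcm10 by 1.61 ± 0.23 (9.55 and 9.11 against 7.44 to 7.97, adjusted p = 0.000461). The replication genes that differed most between the leukaemia arrays were Orc1 (9.30 and 7.67 against 6.05 to 6.36), Fen1 (10.01 and 8.69 against 7.86 to 8.22) and Cdc6 (9.66 and 8.41 against 7.52 to 7.90), all higher on array 1. The G1 cyclin Ccnd1 was 8.75 on array 1 and 11.23 on array 2 against 7.84, 7.54, 7.58, 9.73 and 7.81, and E2f2 (11.28 and 8.84 against 10.68 to 11.01) and the retinoblastoma gene Rb1 (11.99 and 9.75 against 11.21 to 11.33) had array 1 above and array 2 below the B220+ range. The replication list had 18 rises without leukaemia array 1. Calls ended for Cdc6 without leukaemia array 1 (adjusted p = 0.0617). Calls ended for Cdkn1b without leukaemia array 2 (adjusted p = 0.235). Calls arose for Rb1 without leukaemia array 1 (adjusted p = 0.0308). Calls arose for Ccnd1 without B220+ array 4 (adjusted p = 0.0485).

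These rises were found against B220+ cells and not against the other control. Against wild-type precursors, which divide in the marrow, 0 of 43 cell cycle genes rose and 0 fell in limma, with 2 at an unadjusted p under 0.05 and a median of -0.01. Of 36 replication genes 2 rose and 1 fell, with a median of 0.27. In all, 1866 genes (9.36%) were higher and 2401 (12%) lower in that contrast. Cenpf was 9.48 to 9.85 in wild-type precursors and its change against them was 0.20 ± 0.37 (SE, adjusted p = 0.734). Primary granule genes, by contrast, had 10 rises against precursors with a median of 2.69.

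Repair and nucleotide genes gave a mixed picture. Of 22 damage response and p53 target genes 8 rose and 4 fell. Brca2 (9.86 and 9.0 against 7.25, 7.07, 7.10, 7.51 and 7.62, change 2.12 ± 0.24, adjusted p = 8.46e-05), Brca1 (9.86 and 8.85 against 7.78 to 8.19, change 1.47 ± 0.23, adjusted p = 0.000689), the helicase Blm (10.22 and 9.28 against 7.52 to 7.95, change 1.95 ± 0.23, adjusted p = 0.00012) and the Fanconi gene Fancd2 (9.68 and 8.54 against 6.39 to 7.22, change 2.18 ± 0.29, adjusted p = 0.000278), all of homologous recombination and crosslink repair, rose. Lig4, the ligase of end joining that closes antibody gene breaks, fell (6.82 and 8.0 against 10.22, 10.28, 10.25, 10.19 and 10.35, change -2.85 ± 0.55, adjusted p = 0.00305). Atm, the break-sensing kinase, lay below the B220+ range on array 1 (8.10) and above it on array 2 (9.44, range 8.73 to 9.28). The falls numbered 2 without leukaemia array 1. Of 26 nucleotide and one-carbon genes 15 rose and 0 fell, with a median of 0.93, and 9 rose without leukaemia array 2. Tyms, thymidylate synthase, was 10.74 and 10.24 against 8.49, 7.67, 8.10, 8.71 and 8.87 (2.12 ± 0.31, adjusted p = 0.000538), Tk1, thymidine kinase, 10.71 and 9.45 against 8.29, 7.91, 8.07, 8.05 and 8.40 (1.94 ± 0.27, adjusted p = 0.000356), and Rrm1, a ribonucleotide reductase subunit, 12.10 and 11.61 against 10.11 to 10.79 (1.35 ± 0.19, adjusted p = 0.00032). Ctps, CTP synthase, changed by 1.02 ± 0.16 (8.55 and 8.64 against 7.33 to 7.83, adjusted p = 0.000632). Phgdh, the first enzyme of serine synthesis, was 7.87 and 9.89 (B220+ 8.22 to 8.78) and Shmt1, which interconverts serine and glycine, 7.84 and 9.37 (B220+ 7.48 to 7.73). Both were higher on array 2, and neither passed. The nucleotide and one-carbon list had 5 rises and 0 falls against wild-type precursors, with a median of 0.25. The damage response and p53 list had 3 rises and 4 falls there, with a median of 0.03. Against these precursors Brca2 changed by 1.25 ± 0.26 (SE, adjusted p = 0.00218), Blm by 0.69 ± 0.28 (adjusted p = 0.0789) and Brca1 by 0.33 ± 0.25 (adjusted p = 0.369). Calls ended for Lig4 without leukaemia array 1 (adjusted p = 0.0585). Calls arose for Shmt1 without leukaemia array 1 (adjusted p = 0.0351). Calls arose for Atm without leukaemia array 2 (adjusted p = 0.0382).

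Several genes of glucose use rose. Of 28 glycolysis and pentose phosphate genes 15 rose and 2 fell, with a median of 0.72, and against wild-type precursors 17 rose with a median of 0.73. Pfkm, a phosphofructokinase, was 9.57 and 8.57 against 7.32, 7.37, 7.34, 7.54 and 7.43 (1.67 ± 0.22, SE, adjusted p = 0.000229), and Pfkfb4, which makes its activator, 9.10 and 8.32 against 7.31 to 7.51 (1.32 ± 0.19, adjusted p = 0.000455). Pgd, of the pentose phosphate pathway, was 11.58 and 11.39 against 10.66, 10.12, 10.12, 10.30 and 10.27 (1.19 ± 0.18, adjusted p = 0.000659), and the pyruvate kinase Pkm 10.77 and 11.08 against 10.05 to 10.31 (0.74 ± 0.12, adjusted p = 0.00108). Both leukaemia arrays exceeded the controls in each. The lactate dehydrogenase Ldhb was 7.11 on array 1 and 9.01 on array 2 (B220+ 6.09 to 7.32, change 1.28 ± 0.41, adjusted p = 0.0409), Aldoc 6.41 and 8.07 (B220+ 6.54 to 6.88) and the lactate transporter Slc16a1 11.61 and 10.09 (B220+ 10.43 to 10.95). Of the 28 genes 7 were higher than in heterozygous leukaemias, with Pfkm at 0.95 ± 0.21 (adjusted p = 0.0385), Pfkfb4 at 0.92 ± 0.18 (adjusted p = 0.0219), Pgd at 0.85 ± 0.17 (adjusted p = 0.0259) and Ldhb at 1.75 ± 0.39 (adjusted p = 0.0404). In that contrast calls ended for Pfkm, Pfkfb4 and Pgd without leukaemia array 1 (adjusted p = 0.488, 0.309 and 0.226) and Ldhb without leukaemia array 2 (adjusted p = 0.189). The 2 falls, of Pfkfb3 (8.37 and 8.87 against 9.02 to 9.56, change -0.70 ± 0.22, adjusted p = 0.0386) and Pgls (9.23 and 9.59 against 10.45 to 10.97, change -1.29 ± 0.35, adjusted p = 0.0199), numbered 0 without leukaemia array 1 and 1 without any of B220+ arrays 2, 3, 4 and 5. Calls ended for Pfkfb3 and Pgls without leukaemia array 1 (adjusted p = 0.343 and 0.161). Calls ended for Ldhb without leukaemia array 2 (adjusted p = 0.554). Calls ended for Ldhb without any 1 of B220+ arrays 1, 2, 3 and 5 (adjusted p = 0.0563 to 0.0757). Calls ended for Pfkfb3 without any 1 of B220+ arrays 2, 3, 4 and 5 (adjusted p = 0.0563 to 0.0741).

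Antioxidant genes rose in 12 of 21 cases. Gsr, glutathione reductase, was 11.35 and 11.34 against 9.52, 7.61, 8.12, 8.27 and 8.52 (2.94 ± 0.44, SE, adjusted p = 0.000615), Gpx3, a glutathione peroxidase, 10.26 and 8.67 against 5.57, 5.62, 5.46, 5.62 and 5.48 (3.91 ± 0.60, adjusted p = 0.000679), and Txnrd1 and Sod2 changed by 0.89 ± 0.13 (9.22 and 9.23 against 8.21 to 8.43, adjusted p = 0.000468) and 0.67 ± 0.12 (10.48 and 10.62 against 9.68 to 10.07, adjusted p = 0.00145). Nqo1 (8.24 and 5.51, B220+ 5.12 to 5.21) and Txnrd2 (9.97 and 7.10, B220+ 6.97 to 7.35) were high on array 1 alone. Without leukaemia array 1 the list had 5 rises and 1 fall, and without B220+ array 2, 8. Oxidative phosphorylation had 6 rises and 1 fall (Ndufs8, 10.63 and 11.26 against 11.48 to 11.60, change -0.61 ± 0.15, adjusted p = 0.0137) among 50 genes, with a median of 0.17. Its share of rises was near that over all genes, of which 9.48% rose and 11.9% fell. Ndufv1 of complex I was 10.39 and 10.11 against 9.64 to 9.74 (0.56 ± 0.10, adjusted p = 0.00197), and Cycs, cytochrome c, 12.22 and 12.47 against 11.35 to 11.81 (0.75 ± 0.15, adjusted p = 0.0039). Without leukaemia array 2 that list had 10 rises, and without array 1 it had 0 falls. Citric acid cycle and fatty acid oxidation genes had 4 rises and 0 falls among 29, with Idh3a, a subunit of isocitrate dehydrogenase, 9.91 and 10.36 against 9.15 to 9.47, change 0.88 ± 0.13, adjusted p = 0.000661, Sdhc 10.47 and 10.36 against 9.76 to 10.04, change 0.55 ± 0.11, adjusted p = 0.00398, Dld 9.24 and 9.21 against 8.28 to 8.92, change 0.54 ± 0.15, adjusted p = 0.023 and Dlst 10.42 and 9.93 against 9.70 to 9.81, change 0.41 ± 0.10, adjusted p = 0.0141. Calls ended for Ndufs8, Sdhc, Dld and Dlst without leukaemia array 1 (adjusted p = 0.256, 0.052, 0.128 and 0.267). Calls ended for Dld without leukaemia array 2 (adjusted p = 0.073). Calls arose for Nqo1 and Txnrd2 without leukaemia array 2 (adjusted p = 0.00133 and 4.81e-05).

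In lipid synthesis the fatty acid desaturase Scd1 was 10.29 on array 1 and 7.53 on array 2 against 12.31, 12.59, 12.56, 12.49 and 12.39 (-3.56 ± 0.84, SE, adjusted p = 0.00999), the 1 fall among 25 genes. Its relative Scd2 (9.24 and 11.46 against 10.32 to 10.76) and the elongase Elovl6 (8.66 and 10.78 against 9.61 to 10.12) lay below the B220+ range on array 1 and above it on array 2. Idi1 and Fdps of the sterol pathway and Acaca, the first enzyme of fatty acid synthesis, changed by 1.57 ± 0.37 (8.77 and 9.67 against 7.37 to 8.24, adjusted p = 0.00912), 1.06 ± 0.29 (9.52 and 9.86 against 8.46 to 8.80, adjusted p = 0.0209) and 1.34 ± 0.32 (9.20 and 9.72 against 7.84 to 8.34, adjusted p = 0.011). The 5 rises numbered 0 without leukaemia array 2 and 3 without any of B220+ arrays 2, 3 and 5. Calls ended for Fdps without leukaemia array 1 (adjusted p = 0.0625). Calls ended for Scd1, Idi1, Fdps and Acaca without leukaemia array 2 (adjusted p = 0.13, 0.0985, 0.124 and 0.0879).

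Immediate early genes, which respond quickly to signals and to cell handling, were low in the leukaemias. There were 14 falls and 0 rises among 22 genes, and the median change was -1.67. Jun was 8.10 and 8.37 on the leukaemia arrays against 11.21, 11.69, 11.86, 11.23 and 11.43 (-3.25 ± 0.26, SE, adjusted p = 8.11e-06), Fosb 6.79 and 6.54 against 9.11, 9.87, 10.09, 9.01 and 10.04 (-2.96 ± 0.29, adjusted p = 3.28e-05) and Junb 7.90 and 7.73 against 9.24, 9.89, 10.21, 9.57 and 9.70 (-1.91 ± 0.19, adjusted p = 3.98e-05). B220+ arrays 1 and 4 were the lowest controls for Jun and Fosb, still above both leukaemia arrays. Ier5 changed by -1.82 ± 0.18 (7.54 and 7.40 against 8.98 to 9.57, adjusted p = 3.51e-05). Cd69, an activation marker, was 7.65 and 9.41 against 10.60 to 11.67 (-2.57 ± 0.46, adjusted p = 0.00179), the antiproliferative Btg2 11.10 and 9.52 against 12.12 to 12.29 (-1.90 ± 0.44, adjusted p = 0.00848) and Egr1 8.22 and 6.66 against 8.64 to 9.10 (-1.36 ± 0.44, adjusted p = 0.0412). Jun was also lower than in the heterozygous leukaemias, which ran from 10.26 to 11.47 with a median of 10.95 (difference -2.69 ± 0.25, adjusted p = 0.000136), while Fosb was not shown to differ (difference -0.31 ± 0.28, adjusted p = 0.711). The part of cell handling in these levels was not tested. The list had 11 falls against wild-type precursors, with a median of -0.63. Calls ended for Btg2 and Egr1 without leukaemia array 2 (adjusted p = 0.118 and 0.429). Calls ended for Egr1 without any 1 of the B220+ arrays (adjusted p = 0.056 to 0.0792).

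Feedback genes of the kinase pathways below BCR/ABL are set beside all genes, of which 9.48% rose and 11.9% fell. Of 17 ERK feedback genes 5 fell and 0 rose: the phosphatases Dusp2 (7.12 and 8.33 against 10.30, 10.48, 10.71, 10.50 and 10.64, change -2.80 ± 0.37, adjusted p = 0.000225) and Dusp5 (7.63 and 8.86 against 10.17, 10.32, 10.51, 10.08 and 10.40, change -2.05 ± 0.37, adjusted p = 0.00185), the inhibitor Spry2 (6.71 and 6.36 against 7.35 to 7.64, change -1.0 ± 0.29, adjusted p = 0.0284), Fos (6.31 and 6.00 against 7.55 to 8.72, change -1.99 ± 0.45, adjusted p = 0.00748) and Egr1. Dusp6 (8.19 and 9.99 against 10.53 to 10.86, change -1.58 ± 0.86, adjusted p = 0.205) and Dusp1 (9.83 and 8.51 against 10.33 to 11.11, change -1.52 ± 0.61, adjusted p = 0.095) did not pass. The falls numbered 3 without leukaemia array 2 or any of B220+ arrays 2, 3 and 5. Of 20 JAK-STAT feedback genes and targets 1 rose and 2 fell, near the shares over all genes. Myc was 9.97 on array 1 and 11.91 on array 2 against 8.92, 9.28, 9.19, 9.31 and 9.03 (1.79 ± 0.55, SE, adjusted p = 0.0344), with both arrays above the B220+ cells. Socs1, a JAK inhibitor, was 7.48 and 7.59 against 8.78 to 9.05 (-1.34 ± 0.44, adjusted p = 0.0449), Gadd45b 8.48 and 8.58 against 9.89 to 10.18 (-1.48 ± 0.33, adjusted p = 0.00754) and Socs2 8.31 and 9.67 against 8.38 to 9.61 (0.21 ± 0.85, adjusted p = 0.881). This list's median of -0.05 turned to 0.04 under cyclic loess. Calls ended for Spry2, Socs1 and Gadd45b without leukaemia array 1 (adjusted p = 0.0763, 0.203 and 0.0638). Calls ended for Spry2, Egr1, Myc and Socs1 without leukaemia array 2 (adjusted p = 0.157, 0.429, 0.376 and 0.114). Calls ended for Spry2 without any 1 of B220+ arrays 2, 3 and 5 (adjusted p = 0.0509 to 0.055). Calls ended for Egr1 and Socs1 without any 1 of the B220+ arrays (adjusted p = 0.056 to 0.0818). Calls ended for Myc without any 1 of B220+ arrays 1, 2, 3 and 5 (adjusted p = 0.0554 to 0.0602).

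Survival genes of the BCL2 family had 1 rise and 2 falls among 16, near the shares over all genes (9.48% higher and 11.9% lower). Mcl1, a survival gene, was 10.44 and 10.45 against 11.42, 11.67, 11.71, 11.67 and 11.71 (-1.19 ± 0.14, SE, adjusted p = 0.000148), Bmf, a promoter of cell death, 7.56 and 8.41 against 10.38, 10.64, 10.45, 10.69 and 10.58 (-2.57 ± 0.34, adjusted p = 0.000233) and Bcl2l2 6.47 and 6.76 against 5.93 to 6.28 (0.46 ± 0.12, adjusted p = 0.0145). The leukaemia arrays lay on opposite sides of the B220+ range in a further pair: Bcl2l1, which encodes BCL-XL, was 10.74 on array 1 and 7.74 on array 2 (B220+ 9.60 to 10.02), while Bcl2 was 9.16 and 11.56 (B220+ 9.37 to 9.83). Neither passed (-0.53 ± 0.62, adjusted p = 0.559 and 0.76 ± 0.48, adjusted p = 0.276), nor did Bid (9.02 and 10.21, B220+ 8.54 to 8.87, change 0.96 ± 0.34, adjusted p = 0.0665). The list's median of -0.04 turned to 0.03 under cyclic loess. Calls ended for Bcl2l2 without leukaemia array 2 (adjusted p = 0.146). Calls arose for Bcl2l1, Bcl2 and Bid without leukaemia array 1 (adjusted p = 0.0201, 0.00601 and 0.0222).

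Receptors for cytokines had 4 rises and 5 falls among 20 genes, where 9.48% of all genes rose and 11.9% fell. Il2ra, the IL-2 receptor chain CD25 that marks pre-B cells, was 7.08 and 8.18 against 12, 12.01, 12.13, 11.87 and 12.06 (-4.38 ± 0.55, SE, adjusted p = 0.000185), Il21r 7.61 and 7.42 against 9.76 to 10.26 (-2.54 ± 0.36, adjusted p = 0.000398) and Il10ra 7.86 and 9.19 against 10.47 to 10.75 (-2.12 ± 0.33, adjusted p = 0.000739). Igf1r, the receptor for insulin-like growth factor 1, rose (9.76 and 9.54 against 7.26, 6.99, 6.77, 7.29 and 7.16, change 2.56 ± 0.36, adjusted p = 0.000399), and it was higher than in the heterozygous leukaemias (2.32 ± 0.35, adjusted p = 0.00434), whereas Il2ra was lower than there (-3.21 ± 0.53, adjusted p = 0.00758). In that contrast calls ended for Il2ra without leukaemia array 1 (adjusted p = 0.113). Il7r, which early B cells need, was 8.82 on array 1 and 11.78 on array 2 against 12.20, 12.06, 12.17, 12.13 and 12.25 (-1.87 ± 0.63, adjusted p = 0.0521). The falls numbered 3 without leukaemia array 1. Of 19 genes that PAX5 represses, 5 rose and 2 fell, with medians of 0.18 on array 1 and 1.47 on array 2. Emb, a cell adhesion molecule, was 11.54 and 11.93 against 9.04, 8.12, 8.68, 8.64 and 8.06 (3.23 ± 0.44, adjusted p = 0.000297), and the myeloid receptor Cd33 11.19 and 10.86 against 9.78, 7.51, 7.44, 8.15 and 8.25 (2.80 ± 0.64, adjusted p = 0.00788). Slamf6 (8.50 and 9.39 against 11.69 to 11.89, change -2.86 ± 0.45, adjusted p = 0.000813) and Camk2d (8.86 and 8.33 against 10.08 to 10.52, change -1.75 ± 0.36, adjusted p = 0.00452) fell. Notch1 was 9.31 and 11.61 (B220+ 10.16 to 10.25) and Satb1, a chromatin organiser, 8.28 and 11.33 (B220+ 10.38 to 10.82), with the arrays on opposite sides of the B220+ range in both. Calls ended for Cd33 without leukaemia array 1 (adjusted p = 0.0723). Calls arose for Il7r and Satb1 without leukaemia array 2 (adjusted p = 0.000879 and 0.000129).

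Genes with the largest differences between the leukaemia arrays are given as a description of 2 arrays. Higher on array 1 were Kel and Rhag, given above, Pkhd1l1 (11 and 5.21, B220+ 5.24 to 5.51), Tlcd4 (10.49 and 4.97, B220+ 4.96 to 5.03) and the small nucleolar RNA Snord118 (11.43 and 5.92, B220+ 8.25 to 9.05). Higher on array 2 were Dntt, Flt3 and Mecom, given above, Trat1, an adaptor of the T cell receptor (4.88 and 9.99, B220+ 4.73 to 4.78), and Bpifc (5.50 and 10.59, B220+ 5.27 to 5.59). In Pkhd1l1, Tlcd4, Trat1 and Bpifc the other leukaemia array was close to the B220+ level, whereas Snord118 had array 1 above and array 2 below it. Over the heterozygous leukaemias Trat1 ran from 4.81 to 8.97 with a median of 5.66, Bpifc from 5.21 to 5.49 with a median of 5.43 and Pkhd1l1 from 5.04 to 8.07 with a median of 5.41.

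Several receptors that guide B cells to and within lymphoid organs were low. Of 26 chemokine and homing genes 6 fell and 2 rose, where 11.9% of all genes fell and 9.48% rose. Ccr7, the receptor for entry into lymph nodes, was 8.12 and 8.61 against 11.33, 11.52, 11.51, 11.43 and 11.18 (-3.03 ± 0.54, SE, adjusted p = 0.00172), Cxcr5, which leads to follicles, 6.38 and 7.53 against 9.24, 10.09, 9.78, 10.03 and 9.60 (-2.79 ± 0.89, adjusted p = 0.0405), and S1pr1, the receptor for exit into blood, 8.62 and 6.99 against 10.39, 10.95, 10.91, 10.63 and 10.48 (-2.87 ± 0.46, adjusted p = 0.000924). No array of one group reached the other. Gpr183 (7.62 and 7.65 against 9.28 to 10.42, change -2.32 ± 0.60, adjusted p = 0.015), S1pr4 (8.69 and 9.49 against 10.08 to 10.40, change -1.12 ± 0.24, adjusted p = 0.00601) and Cxcr4, the marrow homing receptor (10.77 and 11.38 against 12.02 to 12.22, change -1.01 ± 0.18, adjusted p = 0.00147), also fell. The integrin chain Itgb1 rose (10.68 and 10.41 against 8.61 to 9.09, change 1.70 ± 0.30, adjusted p = 0.00182), as did Cxcl12, given with the stroma. These genes were named after their values were seen. For this list the count of rises was 1 without leukaemia array 1, B220+ array 1, B220+ array 2, B220+ array 3, B220+ array 4 or B220+ array 5 and the count of falls was 3 without leukaemia array 1. Calls ended for Cxcr5, Gpr183 and S1pr4 without leukaemia array 1 (adjusted p = 0.267, 0.0924 and 0.123). Calls ended for Cxcr5 and Gpr183 without leukaemia array 2 (adjusted p = 0.0577 and 0.055). Calls ended for Cxcr5 without any 1 of the B220+ arrays (adjusted p = 0.0508 to 0.0748).

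Interferon response genes had 5 rises and 2 falls among 29, where 9.48% of all genes rose and 11.9% fell. In the list 5 genes were higher on array 1 by at least 2 log2. Oas3, an antiviral sensor, was 10.55 and 8.39 against 6.81, 6.56, 7.05, 6.97 and 6.42 (2.71 ± 0.53, SE, adjusted p = 0.00313), Irf7, the main factor of the response, 10.73 and 9.82 against 7.95, 8.05, 8.89, 8.77 and 7.47 (2.05 ± 0.68, adjusted p = 0.0472), and Ifih1, which encodes MDA5, 10.02 and 8.03 against 6.53, 6.5, 7.17, 6.97 and 6.47 (2.29 ± 0.59, adjusted p = 0.015). Oasl2 (10.94 and 9.96 against 7.74 to 8.89, change 2.22 ± 0.61, adjusted p = 0.0219) and Oas1a (9.32 and 8.57 against 7.16 to 7.78, change 1.54 ± 0.38, adjusted p = 0.0116) rose as well, while Irf1 (9.07 and 10.12 against 10.27 to 10.96, change -1.06 ± 0.35, adjusted p = 0.0499) and Ddx58, which encodes RIG-I (9.69 and 9.85 against 10.62 to 11.19, change -1.05 ± 0.26, adjusted p = 0.0123), fell. These 7 genes were named after their values were seen. For this list the count of rises was 0 without leukaemia array 1 and the count of falls was 0 without leukaemia array 1 and 1 without B220+ array 2, B220+ array 3, B220+ array 4 or B220+ array 5. Calls ended for Oas3, Irf7, Ifih1, Oasl2, Oas1a, Irf1 and Ddx58 without leukaemia array 1 (adjusted p = 0.0672, 0.295, 0.248, 0.206, 0.154, 0.459 and 0.1). Calls ended for Irf7 without leukaemia array 2 (adjusted p = 0.0624). Calls ended for Irf7 without any 1 of the B220+ arrays (adjusted p = 0.051 to 0.088). Calls ended for Irf1 without any 1 of B220+ arrays 2, 3, 4 and 5 (adjusted p = 0.0705 to 0.0925).

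Among 29 histone deacetylase and chromatin genes 4 rose and 8 fell, where 9.48% of all genes rose and 11.9% fell. Of the deacetylases Hdac9 (7.19 and 8.91 against 10.24, 10.62, 10.73, 10.67 and 10.65, change -2.53 ± 0.34, adjusted p = 0.000288), Hdac8 (8.14 and 8.47 against 9.81 to 10.28, change -1.76 ± 0.14, adjusted p = 6.66e-06), Hdac10 (7.90 and 8.33 against 9.47 to 9.79, change -1.48 ± 0.20, adjusted p = 0.000254), Hdac11 (7.11 and 7.35 against 7.64 to 8.11, change -0.66 ± 0.15, adjusted p = 0.00754) and Hdac5, given above, fell, and Hdac4 rose (8.92 and 9.24 against 8.29 to 8.47, change 0.70 ± 0.19, adjusted p = 0.0186). The maintenance methyltransferase Dnmt1 (11.13 and 10.96 against 9.85 to 10.08, change 1.07 ± 0.13, adjusted p = 0.000158), its partner Hells (9.03 and 9.55 against 7.62 to 8.36, change 1.23 ± 0.31, adjusted p = 0.013) and Suz12 (11.29 and 11.01 against 10.63 to 10.84, change 0.41 ± 0.09, adjusted p = 0.00552) rose, and Kdm6b (8.74 and 9.28 against 9.49 to 10.00, change -0.77 ± 0.24, adjusted p = 0.0344), Kmt2a (10.06 and 10.47 against 10.54 to 11.01, change -0.58 ± 0.18, adjusted p = 0.0377) and Crebbp (11.14 and 11.29 against 11.43 to 11.74, change -0.42 ± 0.12, adjusted p = 0.023) fell. Genes other than Hdac5 were named after their values were seen. For this list the count of rises was 2 without leukaemia array 2 and the count of falls was 4 without leukaemia array 1. Calls ended for Hdac11, Suz12, Kdm6b, Kmt2a and Crebbp without leukaemia array 1 (adjusted p = 0.101, 0.115, 0.325, 0.336 and 0.196). Calls ended for Hdac4 and Hells without leukaemia array 2 (adjusted p = 0.138 and 0.104). Calls ended for Kdm6b without any 1 of B220+ arrays 2, 3 and 5 (adjusted p = 0.0632 to 0.0685). Calls ended for Kmt2a without any 1 of B220+ arrays 2, 3, 4 and 5 (adjusted p = 0.0557 to 0.0752).

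PAX5 and IKZF1 are known to restrain the energy supply of B cells through a set of genes that inhibit or carry glucose use. Here 2 of 13 measured rose and 3 fell, where 9.48% of all genes rose and 11.9% fell. The glucose transporter Slc2a3 (10.95 and 10.20 against 9.41, 8.94, 8.63, 9.07 and 8.79, change 1.60 ± 0.37, adjusted p = 0.00812) and the hexokinase Hk2 (8.17 and 8.23 against 6.83, 6.90, 6.72, 6.91 and 6.96, change 1.33 ± 0.23, adjusted p = 0.00134) rose. The cannabinoid receptor Cnr2 fell (7.53 and 6.56 against 9.44, 9.91, 9.75, 9.62 and 9.73, change -2.65 ± 0.33, adjusted p = 0.000183), as did the kinase Sgk1 (7.79 and 7.12 against 8.87 to 9.30, change -1.63 ± 0.21, adjusted p = 0.000183) and the insulin receptor substrate Irs2 (8.56 and 7.88 against 8.99 to 9.53, change -1.07 ± 0.29, adjusted p = 0.0187). Of 26 genes listed as associated with BCR-ABL or leukaemia 5 rose and 5 fell, beside the same shares over all genes. Besides Kcnma1, the rises were of Mc5r, a melanocortin receptor (7.32 and 11.93 against 5.75, 5.60, 5.45, 5.50 and 5.71, change 4.02 ± 0.77, adjusted p = 0.00287), Alox5, which makes leukotrienes (10.31 and 8.72 against 8.16, 6.04, 6.01, 6.53 and 6.54, change 2.86 ± 0.71, adjusted p = 0.0129), Prom1 (8.34 and 6.49 against 5.39 to 5.58, change 1.94 ± 0.32, adjusted p = 0.00111) and the myeloid kinase Fgr (9.25 and 9.45 against 7.64 to 8.75, change 1.23 ± 0.39, adjusted p = 0.0386). Besides Pax5 and Bach2, the antiproliferative Btg1 (10.24 and 10.52 against 12.54 to 12.77, change -2.27 ± 0.22, adjusted p = 3.37e-05), Ikzf1, which encodes Ikaros (10.65 and 11.55 against 11.76 to 11.89, change -0.73 ± 0.21, adjusted p = 0.0268), and Crkl, an adaptor that BCR/ABL phosphorylates (10.38 and 10.48 against 10.88 to 11.06, change -0.58 ± 0.12, adjusted p = 0.00417), fell. Ribosome biogenesis and MYC partner genes had 12 rises among 32 and 1 fall, of the MYC antagonist Mxd4 (9.30 and 10.09 against 10.45 to 10.81, change -0.98 ± 0.22, adjusted p = 0.00696), with a median of 0.55. Genes named here for the first time were picked after their values were seen. For the energy supply genes the count of rises was 1 without leukaemia array 1. For the leukaemia genes the count of falls was 3 without leukaemia array 1. For the ribosome biogenesis genes the count of rises was 7 without leukaemia array 2 and 6 without B220+ array 2 and the count of falls was 0 without leukaemia array 1 and 2 without leukaemia array 2 or B220+ array 4. Calls ended for Slc2a3, Alox5, Fgr, Ikzf1, Crkl and Mxd4 without leukaemia array 1 (adjusted p = 0.121, 0.174, 0.132, 0.422, 0.0512 and 0.145). Calls ended for Irs2 and Fgr without leukaemia array 2 (adjusted p = 0.174 and 0.149). Calls ended for Fgr without any 1 of B220+ arrays 2, 3 and 5 (adjusted p = 0.0718 to 0.0771). Calls ended for Ikzf1 without B220+ array 2 (adjusted p = 0.0514).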

How the data were processed

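Total RNA of marrow cells was measured on 24 one-colour mouse expression arrays. The values used are log2 levels as deposited by the authors, normalized with RMA in the oligo package, per the submitters' processing notes. RMA corrects background, makes the distributions of the arrays alike and sums the probes of a set, so a shift shared by most genes would not be seen. For the versions, and for whether all arrays were normalized together, the sources used here give nothing. Of 35556 probe sets 21789 had 1 gene symbol and were named, 1621 had several and 12146 none, and both latter kinds were left out. A gene was given the probe set with the highest mean over the 24 arrays, which left 19938 genes from 3.8 to 14.31 log2, with no filter on dim genes.

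Groups come from the titles. The main test was the moderated test of limma 3.58.1, run in R 4.3.3 with eBayes (two-sided, Benjamini-Hochberg over 19938 genes), on 14 arrays in 3 groups, with the contrasts of 2 leukaemias against 5 B220+ arrays and against 7 heterozygous leukaemias. It was tested on simulated data in which a gene had the same spread in all 3 groups. That simulation cannot show how the test fares where the leukaemias vary more than the controls. The number of arrays limits the precision. P-values rest on a spread pooled over the 3 groups, to which the 2 leukaemia arrays contribute little. A gene high on 1 leukaemia array alone can therefore pass, such as Bpifc (5.50 on array 1 and 10.59 on array 2, limma adjusted p = 0.044). The named genes are Abl1, Bcr and Pax5, the 8 largest rises and falls among called genes without overlap (leaving out antigen receptor segments, Xist, Y-linked genes and unnamed models), up to 4 called genes of each list with the smallest p, the 3 of each list that differ most between the leukaemia arrays, and the 5 that differ most in each direction over all genes. The rule was applied to 30 lists, and 66 further genes, among them those of the other 12 lists, were named after their values were seen. Members and lists were chosen with earlier results of these data known. Each list is described by counts and its median, with no test of the list. Alternatives were 3 other scalings, other sets of arrays, array weights, an intensity trend, a filter on dim genes, probe sets averaged per gene, a fold minimum, wild-type precursors as control, the replicate number as a block and leaving out each of the 7 arrays. Promoter windows of 250 bases and gene names come from RefSeq tables of build GRCm38.p6. Precursor cells that carry the transgene are not described here.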

Additional observations from a re-analysis of the deposited data

Results flagged for a closer look

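In 19 of the 271 named genes 1 B220+ array lay far from the other 4, by Dixon's gap of the outermost value over the whole range, which chance gives in about 1 in 20 groups. In 13 of them that array was B220+ array 1, which also stood apart over all probe sets. The genes, with the log2 level on array 1 and on the nearest other array, were Blnk (11.76, next array 11.88), Cebpe (8.28, next array 7.49), Clec5a (6.81, next array 5.56), Fcnb (7.81, next array 6.99), Ltb4r1 (6.4, next array 6.15), Mcl1 (11.42, next array 11.67), Ms4a3 (6.02, next array 5.58), Slc40a1 (6.54, next array 5.73), Sox4 (9.90, next array 10.16), Alox5 (8.16, next array 6.54), Cpa3 (6.52, next array 5.44), Hdac9 (10.24, next array 10.62) and Mcpt8 (7.52, next array 5.54). Among them are the granulocyte genes Cebpe, Clec5a, Fcnb, Ltb4r1 and Ms4a3, all of them higher on array 1, and the B lineage genes Blnk and Sox4, both lower. The remaining genes were Brca1 on B220+ array 5 (8.19, next array 7.87), Ccnd1 on B220+ array 4 (9.73, next array 7.84), E2f2 on B220+ array 5 (11.01, next array 10.78), H2-DMa on B220+ array 5 (11.30, next array 11.43), Kitl on B220+ array 3 (4.48, next array 4.65) and Rhag on B220+ array 5 (5.83, next array 5.38).

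For 39 of the 271 named genes the leukaemias with both Pax5 copies differed from the 7 heterozygous leukaemias in limma. Over all genes 373 of 19938 (1.87%) did. Named genes were mostly picked by values that include these same leukaemia arrays, so their share cannot be set against that over all genes. Differences are given as the log2 difference of the group means. Granulocyte genes were higher in the leukaemias with both copies: Ctsg (4.78, adjusted p = 0.00223), Chil3 (4.44, adjusted p = 0.0213), Mpo (4.13, adjusted p = 0.0205), Prtn3 (3.98, adjusted p = 0.0004), Elane (3.95, adjusted p = 0.0059), Fcnb (3.44, adjusted p = 0.000166), Ms4a3 (3.41, adjusted p = 0.00127), Csf3r (3.28, adjusted p = 0.00641), Cd177 (3.26, adjusted p = 0.015), Padi4 (3.21, adjusted p = 0.000166), Clec5a (3.13, adjusted p = 0.0367), Itgb2l (2.58, adjusted p = 0.00315), Cebpe (2.49, adjusted p = 0.000404), Wfdc21 (1.85, adjusted p = 0.00349) and Ltb4r1 (1.15, adjusted p = 0.00494). Also higher were the regulators and receptors Nfe2 (2.54, adjusted p = 0.0285), Igf1r (2.32, adjusted p = 0.00434), Gfi1b (2.30, adjusted p = 0.0494) and Gata2 (1.39, adjusted p = 0.0101) and the glycolysis and pentose phosphate genes Ldhb (1.75, adjusted p = 0.0404), Pfkm (0.95, adjusted p = 0.0385), Pfkfb4 (0.92, adjusted p = 0.0219) and Pgd (0.85, adjusted p = 0.0259). Higher as well were the basophil protease Mcpt8 (3.41, adjusted p = 0.00956) and, from the list named for BCR-ABL and leukaemia, Mc5r (4.03, adjusted p = 0.0145) and Prom1 (1.92, adjusted p = 0.00641). The difference of Mc5r was 6.33 without leukaemia array 1 and 1.73 without array 2. Lower were the protease gene Ctsc (-1.02, adjusted p = 0.0232) and B cell, plasma cell and signalling genes: Il2ra (-3.21, adjusted p = 0.00758), Mzb1 (-2.80, adjusted p = 0.00684), Jun (-2.69, adjusted p = 0.000136), H2-Eb2 (-2.67, adjusted p = 0.017), Cd69 (-2.52, adjusted p = 0.0107), Cecr2 (-2.25, adjusted p = 0.00927), Tnfrsf13c (-2.10, adjusted p = 0.0148), Camk2d (-1.58, adjusted p = 0.0367), Il10ra (-1.51, adjusted p = 0.0296), Fcrl1 (-1.29, adjusted p = 0.0172), Grap (-1.28, adjusted p = 0.00758) and Cd37 (-1.0, adjusted p = 0.0186). Of the 39 genes 17 still passed without leukaemia array 1 and 36 without array 2. No test set the granulocyte genes against other genes, and the contrast rests on 2 leukaemias with both copies.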

How the results depend on the processing

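As deposited, 4260 genes passed against B220+ cells and 373 against heterozygous leukaemias. The first count was 8809 after median centring, 2281 with array weights and 1766 where a change also had to reach 1 on the log2 scale. The second was 1038 when all 24 arrays shared the spread and 83 with array weights. Leaving out 1 array gave 2235 (without leukaemia array 1) to 4755 (without leukaemia array 2) for the first and 281 to 2137, likewise, for the second. With the replicate number as a block the counts were lower, at 2726 and 106. The settings not given here stayed within 1.5 times. Same-numbered arrays correlated at 0.149 and 0.029 in their deviations from the group means. With 2 leukaemia arrays these deviations mirror each other, so the correlations cannot decide on a pairing. The labels name no shared animal or day, so the numbers were not taken to pair the arrays.

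Of 158 genes chosen by the naming rule and past the test, 108 still passed without leukaemia array 1, 138 without array 2, 141 to 149 without a B220+ array, 132 with array weights and 138 with the block, with no change of direction. For the left-out leukaemia arrays the direction could not change. Among called genes 0 had these 2 arrays on opposite sides of the B220+ mean. Against wild-type precursors 119 passed in the same direction. There Cr2 was at 0.31, Fcer2a at 0.48, H2-DMa at 0.01, Ctss at 0.19, Cxcr5 at 0.92, Hells at -0.05, Ndufs8 at 0.07 and Ndufv2 at -0.0, just under 0. The median of the cell cycle genes was -0.01 there, that of the JAK-STAT genes 0.12 (0.04 under cyclic loess) and that of the BCL2 family 0.02 (0.03 under cyclic loess). Abl1, which did not pass, was at 0.61 without leukaemia array 1 and -0.69 without array 2. The fold minimum and the left-out arrays act by construction, and for the other settings the cause was not tested. Both leukaemia arrays had a weight of 0.398, so precision is set by 2 unlike arrays. Genes near background have compressed changes, and for lymphocyte, granulocyte, erythroid and stromal genes cell numbers and RNA per cell cannot be told apart.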
